A study of Mus musculus with 5 samples.

Results

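The data describe DNA methylation in a stretch of mouse chromosome 3 around *Tet2* (chr3:132000001-142000000, GRCm38), in leukemic blasts with and without *Tet2*. The stretch was cut into tiles of 5 kb, and 1914 of its 2000 tiles had at least 20 methylation calls in every library. They are 1914 of the 488655 tiles of the autosomes and the X chromosome that met this minimum, and the rest of chromosome 3 held 28222. A CpG dyad, which is the CG on both strands, was left out of the tiles before counting if it had 0 methylated calls over all *Tet2*-/- libraries at 10 or more calls and was at least 80% methylated in *Tet2*+/+ at 6 or more calls. The tiles were thus chosen by methylation levels in both groups, and differences in methylation between the groups are given here as a description. The choice also asked for a minimum of calls per tile and per dyad, so coverage was compared over all 76258 dyads of the stretch, with no minimum and with the removed dyads kept in.

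The libraries were made by whole-genome bisulfite sequencing of acute myeloid leukemia (AML) blasts from mice labeled C57BL/6 (C57BL/6J donors and C57BL/6J.SJL recipients in the methods of the study), sorted as donor-derived bone marrow cells that were neither lymphoid nor erythroid. All 5 libraries are *Cebpa*-/p30, with a deleted *Cebpa* allele and an allele that encodes only the short p30 isoform of this myeloid transcription factor. The groups are *Tet2*+/+ (2 libraries, numbers 23 and 24) and *Tet2*-/- (3 libraries, numbers 5, 7 and 8), described in the labels as biological replicates. The labels do not tell whether the libraries of a group came from separate donor mice or from transplants of one leukemia, so the SDs and the permutation test measure the spread between these libraries, which may be smaller than that between independent leukemias. The floxed alleles were deleted in transplanted bone marrow with *Mx1-Cre*, an interferon-inducible Cre, after injection of the recipients with Poly(I)-Poly(C). The *Tet2*-/- leukemias came from *Tet2* fl/fl mice and the *Tet2*+/+ leukemias from mice without a floxed *Tet2*, so that loss of TET2 and descent of the chromosome around *Tet2* from the floxed line cannot be told apart within the stretch. Each value is a mean over sorted cells, in which a change in some cells and a partial change in all cells cannot be told apart either.

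TET2 oxidises the methyl group of methylated cytosine, which leads to loss of the mark at enhancers and gene bodies in blood cells, and its gene is often mutated in myeloid leukemia. Bisulfite turns unmethylated cytosine into uracil, which is sequenced as T, whereas methylated cytosine stays C. At a position where the sequenced DNA has T in place of the C of the reference, the read is therefore also counted as unmethylated, and where it has another base or no DNA at all there is no call.

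The deletion of *Tet2* was seen as missing calls. A run of 36 neighboring dyads at chr3:133466411-133468352, reached from inside the last exon of *Tet2* (minus strand, gene at chr3:133463679-133545139) into the last intron, and *Tet2*+/+ libraries 23 and 24 covered it with 128 and 151 calls. Each of the *Tet2*-/- libraries had 0 calls, which allows at most 1.6%, 1.62% and 2.84% of the calls per dyad of the DNA on either side in libraries 5, 7 and 8 (3 counts). The labels and this deletion thus gave the same grouping of the 5 libraries.

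The sequences below show what was left out. A stretch of 300 bases on the plus strand at chr3:136601161-136601460 holds 3 removed dyads, whose CG is in capitals, and 3 dyads that were kept, whose cg is in lower case. Of the kept dyads, 1 lies between removed dyads and the other 2 lie after the last of them. It is 1 of the 2 stretches of this length with 3 removed dyads, which were looked for after the values were seen.
Stretch with removed and kept dyads: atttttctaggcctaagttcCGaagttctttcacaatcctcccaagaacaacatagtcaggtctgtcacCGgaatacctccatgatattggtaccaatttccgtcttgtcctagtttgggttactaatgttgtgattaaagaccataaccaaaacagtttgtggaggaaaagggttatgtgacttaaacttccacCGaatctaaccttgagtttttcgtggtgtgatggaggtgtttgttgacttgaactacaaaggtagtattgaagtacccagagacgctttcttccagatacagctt
In *Tet2*+/+, the 3 removed dyads had 22 methylated of 24 calls and the 3 kept dyads 18 of 22. In *Tet2*-/-, the removed dyads had 0 methylated of 49 calls, whereas the kept dyads had 35 of 39 (89.7%), with 17 of 18 at the one between removed dyads. Neighboring CpGs within 300 bases were thus at 0% and at 89.7% in the same *Tet2*-/- libraries.

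The other stretch lies in an intron of *Bank1*, the gene of a B cell scaffold protein (chr3:136265413-136265712, plus strand).
Stretch in *Bank1*: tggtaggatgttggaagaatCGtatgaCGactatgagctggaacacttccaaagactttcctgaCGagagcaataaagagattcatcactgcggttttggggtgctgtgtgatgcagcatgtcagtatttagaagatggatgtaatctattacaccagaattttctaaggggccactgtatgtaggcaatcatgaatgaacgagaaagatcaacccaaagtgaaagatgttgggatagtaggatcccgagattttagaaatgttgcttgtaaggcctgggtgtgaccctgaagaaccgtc
Here the 3 removed dyads had 21 methylated of 23 calls in *Tet2*+/+ and 0 of 47 in *Tet2*-/-. Of the 4 kept dyads, 2 had no call in any *Tet2*-/- library, and the other 2 together had 1 methylated of 13 calls. These 2 dyads had 7 of 8 and 5 of 5 methylated calls in *Tet2*+/+, against 0 of 8 and 1 of 5 in *Tet2*-/-. Over all 4, *Tet2*+/+ had 20 of 22.

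In the tiles that lost most dyads (4 with 4 removed dyads, and the first by position of 17 with 3), the removed dyad with the most *Tet2*-/- calls is shown with 20 bases on each side, on the plus strand, with its CG in capitals.
*Bank1* intron, chr3:136265420-136265461: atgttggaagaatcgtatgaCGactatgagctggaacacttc
*Mttp* intron, chr3:138124827-138124868: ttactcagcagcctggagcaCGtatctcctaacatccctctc
*4930579F01Rik* intron, chr3:138178848-138178889: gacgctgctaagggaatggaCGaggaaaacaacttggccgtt
Between protein-coding genes near *Adh6a*, chr3:138305880-138305921: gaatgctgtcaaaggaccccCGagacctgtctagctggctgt
Between protein-coding genes near *Manba*, chr3:135575945-135575986: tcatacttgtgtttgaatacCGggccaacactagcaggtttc
These 5 dyads had 6 of 7, 12 of 13, 12 of 13, 10 of 12 and 12 of 14 methylated calls in *Tet2*+/+, in the order shown. Over the 3 *Tet2*-/- libraries they had 0 methylated of 18, 24, 23, 26 and 14 calls, and every *Tet2*-/- library contributed calls to each of them. A count of 0 allows a level of up to 11.5% to 21.4% at these depths (3 counts, counting error only).

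The stretch lost 400 dyads, and they were rare elsewhere. Of its 76258 dyads, 18445 had the calls and the *Tet2*+/+ level that the rule asks for, and 2.169% of these were removed. In the rest of chromosome 3 the same rule took 8 of 267958 dyads (0.002986%), and on the other 19 chromosomes 112 of 5261486 (0.002129%), with 1 to 11 on each chromosome. The opposite pattern, 0 methylated calls in *Tet2*+/+ at 6 or more calls and at least 80% in *Tet2*-/- at 10 or more, was found at 78 of 22070 dyads of the stretch that had the calls and the *Tet2*-/- level for it (0.353%). In the rest of chromosome 3 it was found at 724 of 338323 (0.214%) and on the other chromosomes at 13610 of 6706708 (0.203%). The opposite pattern was thus also more frequent in the stretch, by far less than the removed dyads were. The removed dyads ran from 132650463 to 141439550, over 8.789 Mb, from 0.816 Mb before the bases missing from *Tet2* to 7.97 Mb after them. The median gap between neighboring removed dyads was 7621 bp, and the largest was 541902 bp. The nearest removed dyads outside lay at 127350648 and 147182241 on the same chromosome.

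**Figure D1:**
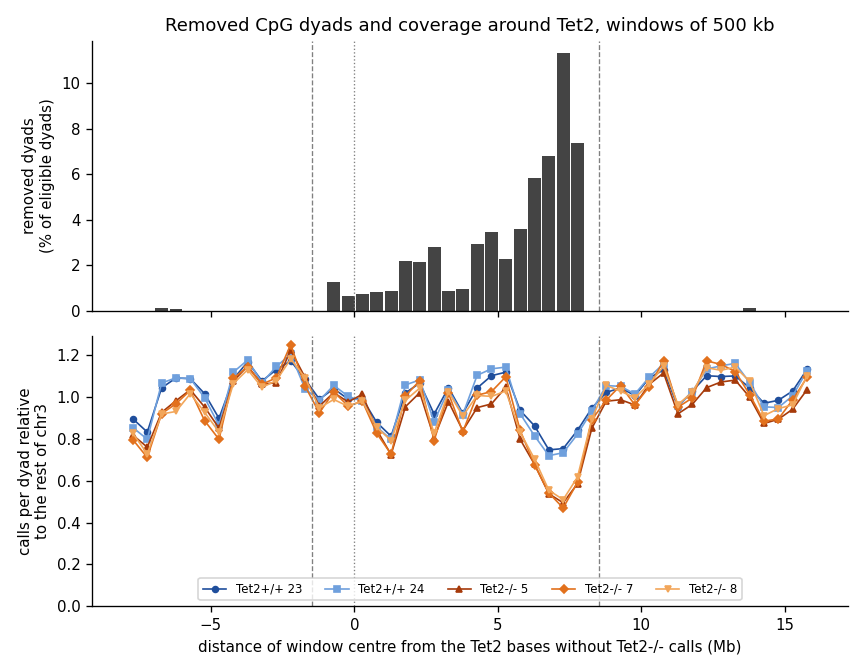
The upper panel plots the removed dyads as a percentage of the dyads with enough calls in windows of 500 kb, against the distance of each window from the bases missing from *Tet2* in Mb, and the lower panel plots calls per dyad of each library relative to the rest of chromosome 3. The dashed lines mark the ends of the stretch and the dotted line marks *Tet2*. Removed dyads fill 18 of the 20 windows and reach 11.3% where the coverage of the 3 *Tet2*-/- libraries lies furthest below that of the 2 *Tet2*+/+ libraries.

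The rule fixed the level of the removed dyads in both groups, at 0% in *Tet2*-/- and at 80% or more in *Tet2*+/+, and the kept dyads set beside them met the same minimum of calls and of the *Tet2*+/+ level. In *Tet2*+/+ they were at 92.69% and 91.24% in libraries 23 and 24, and the kept dyads were at 93.12% and 91.95%. In *Tet2*-/- the removed dyads had 0 methylated of 2414, 2636 and 1405 calls in libraries 5, 7 and 8. The kept dyads were at 89.79%, 93.32% and 87.41% in the same libraries. Just outside the rule, 58 of the 18445 dyads of the stretch (0.314%) had 1 methylated *Tet2*-/- call, and 65 (0.352%) were above 0% and up to 10%. In the rest of chromosome 3 these were 24 (0.00896%) and 26 (0.0097%) of 267958. At lower depth, 343 of 4604 dyads (7.45%) had 0 methylated calls at 4 to 9 *Tet2*-/- calls, against 24 of 48277 (0.0497%). Another 139 of all 76258 dyads of the stretch had 0 methylated calls but a *Tet2*+/+ level of 60% to under 80%. In the rest of the chromosome these were 27 of 1114958. From 10% upward the stretch and the rest of the chromosome were alike: 0.905% and 1.05% of dyads were above 20% and up to 50%, and 85.6% and 86.9% were above 80%. The excess thus lay in the class at 0% and the class next to it.

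Each *Tet2*-/- library was then left out of the choice in turn and read on its own. Dyads chosen at 10 or more calls in the other 2 libraries were at 1.06% in library 5 (14 of 1324 calls at 201 dyads, exact 95% confidence interval 0.579% to 1.77%). They were at 0.554% in library 7 (8 of 1443 calls at 196 dyads, 0.24% to 1.09%) and at 1.15% in library 8 (13 of 1135 calls at 297 dyads, 0.611% to 1.95%). In the rest of chromosome 3, the few dyads chosen in the same way (14, 19 and 10) were at 43.2%, 64.9% and 36.6% in the library left out. The dyads of the stretch were thus low in the library left out as well. The bounds of the stretch were set with all libraries known, and the intervals take calls at the same dyad as independent.

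**Figure D2:**
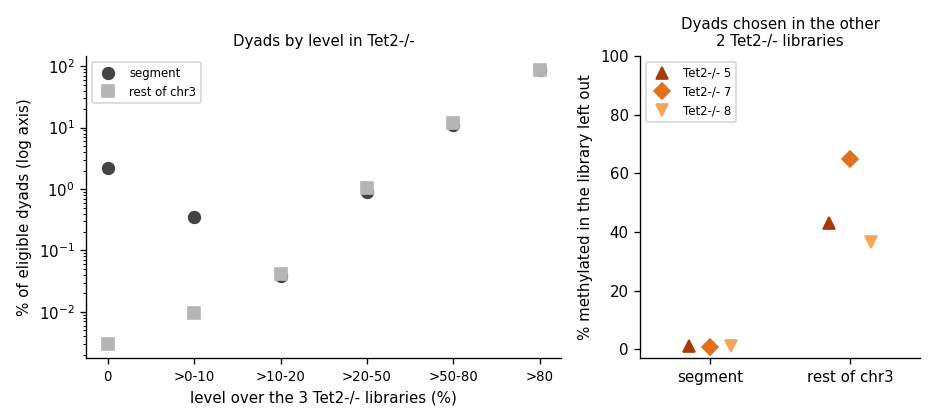
The left panel plots the share of dyads with enough calls (percent, log axis) by their level over the 3 *Tet2*-/- libraries, for the stretch and for the rest of chromosome 3, and the right panel the level in 1 *Tet2*-/- library at dyads chosen in the other 2. The shares differ at 0% and above 0 to 10% and lie close together in the higher classes, and the level in the library left out is 0.554% to 1.15% in the stretch against 36.6% to 64.9% elsewhere on the chromosome.

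Both strands of the removed dyads were read. Levels were 92.1% on the plus and 91.9% on the minus strand in *Tet2*+/+. They were 0% on both in *Tet2*-/-, which the rule fixed, since it counts the calls of both strands. Of the 400 removed dyads, 59 (14.8%) were called on 1 strand only in *Tet2*-/- and 37 (9.25%) in *Tet2*+/+, although *Tet2*-/- had more calls per dyad (16.1 against 10.4). Among the 18045 kept dyads the shares were 5.36% and 9.23%, with 17.5 and 10.3 calls per dyad. Calls on 1 strand only were thus more frequent in *Tet2*-/- at removed dyads and less frequent at kept dyads.

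Most removed dyads lay outside protein-coding genes, the only genes counted here. There were 230 between them (57.5%), 150 in introns (37.5%), 18 in exons (4.5%) and 2 in promoters (0.5%), against 46.4%, 44.4%, 8.35% and 0.914% of the kept dyads. Repeats masked in the reference held 11% of the removed and 12.8% of the kept dyads. The dyads in exons belonged to 14 genes, with 3 in *Ddit4l*, which encodes an inhibitor of mTOR signaling, 2 each in *Dnajb14* and *Metap1*, and 1 in *Tet2* itself outside the missing bases. By gene, *Stpg2* held 23 of them, *Tspan5*, the gene of a tetraspanin of the cell membrane, 20, and *Nfkb1*, which encodes the p105 and p50 subunit of NF-kB, 18. *Mttp*, whose product loads lipid onto lipoproteins, held 13, or 6.19% of its eligible dyads, compared with 4.42% in *Stpg2*, 3.36% in *Nfkb1* and 1.96% in *Tspan5*.

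Coverage over all dyads of the stretch was lower in *Tet2*-/-. Calls per dyad were 97.63% and 97.97% of those in the rest of chromosome 3 in *Tet2*+/+ libraries 23 and 24. They were 88.56%, 90.5% and 90.47% in *Tet2*-/- libraries 5, 7 and 8, so that the groups did not overlap. The group means of 97.8% ± 0.243 (SD, n = 2) and 89.85% ± 1.112 (SD, n = 3) were -7.957 points apart (*Tet2*-/- minus *Tet2*+/+; exact permutation test, two-sided, p = 0.1, the smallest p that 10 splits of 5 libraries allow). In the 2 Mb before the stretch the *Tet2*-/- mean was 96.5% and 102.2% of the *Tet2*+/+ mean per Mb, and in the 2 Mb after it 97.33% and 96.57%. In the first 5 Mb of the stretch it was 94.12% to 98.23%, which overlaps the range of these neighbors. In the last 5 Mb it was 70.13% to 92.65%, below all of them. These windows of 1 Mb held from 5254 dyads (140 to 141 Mb) to 11673 (138 to 139 Mb). Whether the coverage of *Tet2*-/- relative to *Tet2*+/+ follows the number of dyads in a window was not tested.

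The loss of coverage was uneven along the stretch. Between 140 and 141 Mb, where 40 of 460 eligible dyads (8.7%) were removed, coverage was 74.99% and 72.62% of the rest of the chromosome in *Tet2*+/+ and 51.58%, 50.54% and 53.16% in *Tet2*-/-. Between 133 and 134 Mb, where *Tet2* lies and 16 of 2405 dyads (0.665%) were removed, *Tet2*-/- had 98.23% of the coverage of *Tet2*+/+. Over the 20 windows of 500 kb the ratio of *Tet2*-/- to *Tet2*+/+ coverage ran from 0.6608 to 1.005, and it fell below 0.9 in 7 of them. In the 294 windows of the rest of chromosome 3 it ran from 0.8736 to 1.113, with a median of 0.9831, and 3 were below 0.9. The share of removed dyads is not independent of coverage, since the rule asks for *Tet2*-/- calls: 0 methylated calls were found at 7.45% of dyads at 4 to 9 *Tet2*-/- calls, 2.74% at 10 to 14 and 1.84% at 15 or more.

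Some dyads of the stretch had no calls in *Tet2*-/- at all. This was looked at after the other values were seen, and it used no methylation level. Of 20196 dyads with 10 or more calls over the *Tet2*+/+ libraries, 205 had 0 calls over the 3 *Tet2*-/- libraries (1.02%), 191 of them outside the bases missing from *Tet2*. In the rest of chromosome 3 there were 2 of 313180 (0.000639%). Without *Tet2*+/+ library 24, which leaves 1602 dyads at 10 calls in library 23, the share was 0.437%. In the other direction, 39 of 40877 dyads of the stretch (0.0954%) with 10 or more *Tet2*-/- calls had none in *Tet2*+/+, compared with 692 of 669063 (0.103%) in the rest of the chromosome. Dyads without calls were thus found in both groups, and their share was above that of the rest of the chromosome in *Tet2*-/- and not in *Tet2*+/+.

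The 205 dyads were not independent of each other, and up to 15 lay in 1 run of neighbors without *Tet2*-/- calls. Counted with neighbors at any *Tet2*+/+ depth, there were 125 runs with 438 dyads, of which 65 held a single dyad and 20 held 5 or more. The run in *Tet2* held most dyads, 36, of which 14 had 10 or more *Tet2*+/+ calls, and the longest in bases was 3844 bp. The next held 32 dyads over 1416 bp at chr3:138601139-138602554, 41.4 kb from *Eif4e*, which encodes the cap-binding protein of translation, and had 148 and 129 calls in *Tet2*+/+. A run of 31 dyads over 451 bp, 8.01 kb from *Ppa2*, had 33 and 18 calls in *Tet2*+/+, and one of 19 dyads over 3759 bp, 138 kb from *Pdha2*, had 80 and 73. All of these had 0 calls in libraries 5, 7 and 8. No dyad without calls was seen at this depth between 134 and 135 Mb or in the 2 Mb on either side of the stretch, and the share was highest between 140 and 141 Mb (37 of 910, 4.07%).

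**Figure D3:**
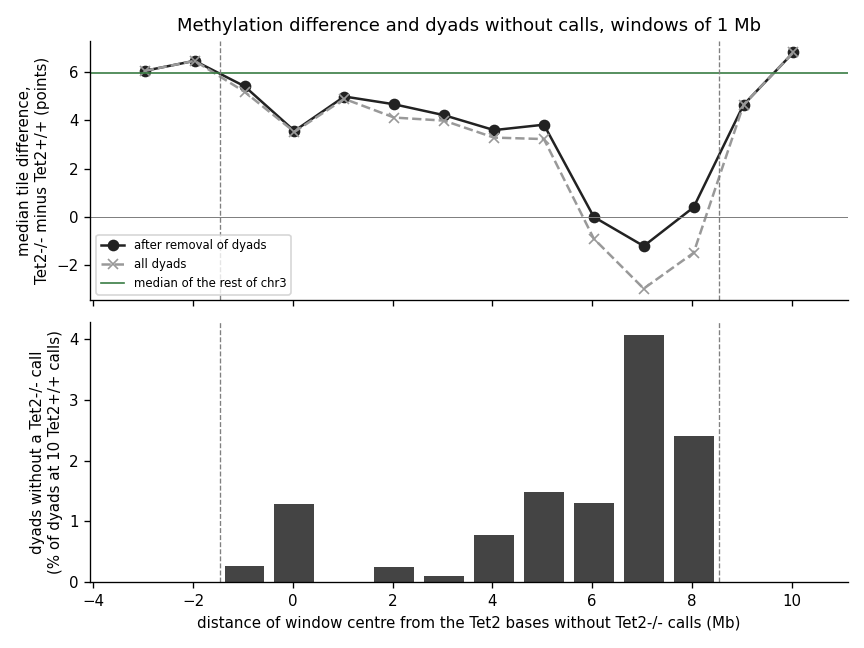
The upper panel plots the median difference in methylation of 5 kb tiles (*Tet2*-/- minus *Tet2*+/+, percentage points) in windows of 1 Mb with and without the removal of dyads, and the lower panel the share of dyads with 10 or more *Tet2*+/+ calls that had no *Tet2*-/- call, both against the distance from the bases missing from *Tet2* in Mb. The difference lies between -1.221 and 0.3895 in the last 3 windows of the stretch, where the share without calls is 1.31% to 4.07%, and between 3.561 and 5.417 in the first 7, where the share is 0% to 1.48%.

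Tiles of the stretch gained less methylation in *Tet2*-/- than the rest of the chromosome. The median tile was at 73.96% and 70.78% in *Tet2*+/+ libraries 23 and 24, and at 76.68%, 81.6% and 71.16% in *Tet2*-/- libraries 5, 7 and 8. Library 8 lay between both *Tet2*+/+ libraries and the groups overlapped. In the rest of chromosome 3 the median tile was at 70.37% and 64.15% against 73.92%, 79.53% and 69.92%. The stretch was thus above the rest of the chromosome in every library, by 3.586 and 6.632 points in *Tet2*+/+ and by 2.762, 2.076 and 1.238 points in *Tet2*-/-. The median difference between group means per tile was 3.485 points (quartiles -1.32 to 7.766; 1.368 without *Tet2*-/- library 7, 1.896 without *Tet2*+/+ library 24 and 5.448 without *Tet2*-/- library 8), against 5.959 points in the rest of chromosome 3 (2.173 to 10.42) and 6.139 points over all tiles. It was positive in 69.4% of the tiles of the stretch and in 85.4% of the rest.

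The smaller median came with more tiles below *Tet2*+/+. All *Tet2*-/- libraries were above both *Tet2*+/+ libraries in 470 tiles (24.6%, against 36.6% of all tiles and 33.6% of the rest of chromosome 3). They were below both in 124 tiles (6.48%, against 1.27% and 1.3%). By edgeR's quasi-likelihood test with Benjamini-Hochberg adjustment over all tiles, 51 tiles of the stretch (2.66%) were called higher and 9 (0.47%) lower, where 3.22% and 0.0203% of all tiles and 2.44% and 0.0106% of the rest of chromosome 3 were called. The rule used this contrast, and these calls are given as counts only. They varied with single libraries: 3 tiles (0.157%) were called without *Tet2*+/+ library 24, 15 (0.784%) without *Tet2*+/+ library 23 and 20 (1.04%) without *Tet2*-/- library 5, where 0.0561%, 1.07% and 1.31% of all tiles were called. Of the calls without library 5, 1 was lower. Without *Tet2*-/- library 7, 16 of 57 were lower (2.98%, against 2.77% of all tiles), and without library 8, 4 of 66 (3.45%, against 4.12%). Lower calls also varied with the settings. There were 3 at a minimum of 50 calls, 4 with 2 kb tiles and 4 with only dyads called in all 5 libraries. At a minimum of 10 calls there were 12, and by limma 14. All calls in these settings were 3.76%, 2.27%, 3.12%, 3.1% and 2.3%, against 4.55%, 2.7%, 3.67%, 3.13% and 1.58% of all tiles. After subtraction of the median of each library, limma called 4 tiles higher and 8 lower (0.627% of the tiles of the stretch, against 0.0567% of all tiles). With no dyads removed, 190 tiles (9.91%) were below both *Tet2*+/+ libraries. EdgeR then called 48 higher and 14 lower (together 3.23% of the tiles of the stretch, against 3.24% of all tiles).

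Leaving out a removed dyad raises the difference of its tile by construction, and the tiles that lost dyads were picked out by that same difference, so the values before and after give only the size of the step. In the 297 tiles that lost a dyad (1 to 4 each, 394 dyads in all), the median difference was -3.013 points before and 1.152 points after the removal. In the 1617 tiles that lost none it was 3.732 points. Of the 124 tiles below *Tet2*+/+, 30 had lost a dyad and 76 held a kept dyad of the same kind at lower depth, with 0 methylated *Tet2*-/- calls at 3 or more calls and at least 80% in *Tet2*+/+ at 3 or more. Such dyads lower the difference of their tile by construction. The counts of 30 and 76 overlap, and 81 of the 124 tiles had lost a dyad or held such a kept dyad. Kept dyads of this kind were present in 436 tiles of the stretch (22.8%) and in 135 tiles (0.478%) of the rest. Tiles just inside the minimum of calls, at 20 to 24 calls in their shallowest library (52 tiles), had a median difference of -7.359 points, and the 36 tiles just outside, at 15 to 19, of -0.5387 points.

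Tiles below *Tet2*+/+ were concentrated in the far end from *Tet2*. In the last 3 Mb, 79 of 540 tiles (14.6%) were below both *Tet2*+/+ libraries in all *Tet2*-/- libraries and 66 (12.2%) above. In the first 7 Mb the counts were 45 (3.28%) and 404 (29.4%) of 1374. The median difference was 5.417 points at 132 to 133 Mb, next to the edge, and 3.561 points at 133 to 134 Mb around *Tet2*. It was -0.01176, -1.221 and 0.3895 points from 139 to 142 Mb and 4.645 points in the first Mb beyond the stretch.

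The 5 tiles with the largest gain lay between 133 and 137 Mb, and the 5 with the largest loss between 139 and 142 Mb. The largest gain was in a tile outside genes at chr3:135200001-135205000, 7.54 kb from *Cenpe*, which encodes a kinesin of the centromere. Its 62 dyads were at 35.69% and 29.49% in *Tet2*+/+ libraries 23 and 24 and at 84.12%, 85% and 80.24% in *Tet2*-/- libraries 5, 7 and 8, a difference of 50.53 points (47.43 to 53.63 with 1 library left out). No library of one group came near the other. *Bank1* held the next 2, in a tile with an exon (chr3:136100001-136105000, 45.33 points) and in an intron (chr3:136180001-136185000, 44.68 points). *Gstcd*, the gene of a glutathione transferase-like protein, held one (chr3:133060001-133065000, 43.38 points), and *Ppp3ca*, which encodes the catalytic subunit of calcineurin, another (chr3:136775001-136780000, 39.78 points). None of the 5 tiles had lost a dyad, and none held a kept dyad at 0%.

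The largest loss was in a tile of 12 dyads outside genes, 110 kb from *Unc5c* (chr3:141350001-141355000). It was at 74.29% and 71.79% in *Tet2*+/+ and at 27.27%, 27.27% and 33.33% in *Tet2*-/-, on 27 to 39 calls per library, a difference of -43.75 points. A tile of 151 dyads in an intron of *Stpg2* (chr3:139560001-139565000) was at 80.6% and 77.4% against 43.42%, 25% and 57.14%. It had 201 and 146 calls in *Tet2*+/+ and 76, 56 and 56 in *Tet2*-/-, fewer in each *Tet2*-/- library although libraries 5 and 7 were the deepest. The other 3 tiles lay between genes from 140 to 141 Mb, with differences of -36.08, -34.92 and -32.99 points on 20 to 81 calls. Of the 5, 4 held 1 or 2 kept dyads at 0% in *Tet2*-/- and at least 80% in *Tet2*+/+, each at 3 or more calls. None had lost a dyad to the rule.

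**Figure D4:**
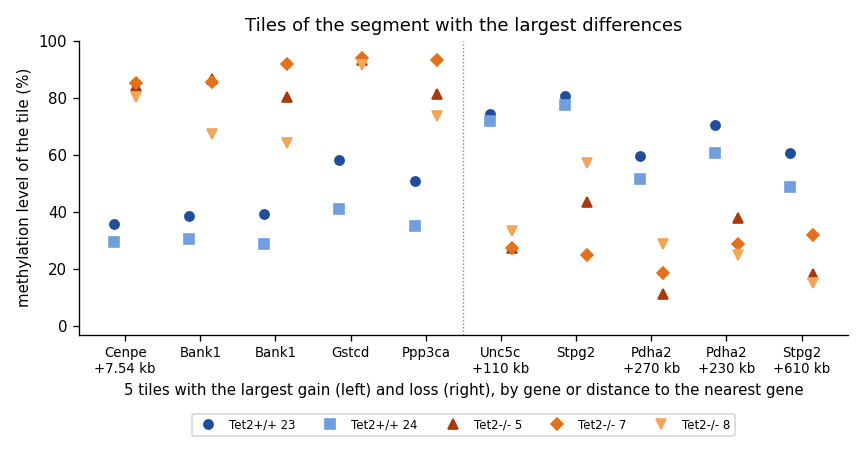
The methylation level (percent) of each library is plotted for the 5 tiles with the largest gain (left) and the 5 with the largest loss (right), named by the gene they lie in or by the distance to the nearest protein-coding gene. The 2 *Tet2*+/+ and the 3 *Tet2*-/- libraries do not overlap in any of them, which is how they were chosen, and the *Tet2*-/- libraries spread from 25% to 57.14% in the tile of *Stpg2*.

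In the tiles that lost most dyads, the step by which the removal raises the difference was 5.727 to 16.97 points. The *Bank1* tile with 4 removed dyads (chr3:136265001-136270000) differed by -47.44 points before and -30.47 points after the removal, and was then at 90.67% and 86.84% in *Tet2*+/+ and at 47.14%, 63.83% and 63.89% in *Tet2*-/-. It still held 3 kept dyads at 0% in *Tet2*-/- and at least 80% in *Tet2*+/+, each at 3 or more calls. In *Mttp* (chr3:138120001-138125000) the difference went from -4.869 to 0.9373 points. In *4930579F01Rik* (chr3:138175001-138180000) it went from -12.31 to -5.61 points, and near *Manba* (chr3:135575001-135580000) from -1.882 to 3.845 points. After removal these 3 ranged from -3.207 to 5.073, from -9.165 to -3.745 and from 1.935 to 6.43 points with 1 library left out, so that only the first changed sign, without *Tet2*+/+ library 24. The tile near *Adh6a*, with an exon of the antisense gene *Gm16559* (chr3:138305001-138310000) went from -7.404 to 1.415 points, with -1.42 to 5.27 points when 1 library was left out.

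Promoters (1000 bp up- and downstream of the annotated start) were mostly free of removed dyads. Of the 49 protein-coding genes that overlap the stretch, 47 had enough calls, and 22 of these promoters were under 20% in every library. The promoter of *Bmpr1b* is among the 47 although it lies beyond the end of the stretch. All *Tet2*-/- libraries were above both *Tet2*+/+ libraries in 20 (32.8% of all promoters were) and below both in 1 (4.05%). The median difference was 2.782 points, against 2.263 points over 880 promoters of the rest of the chromosome. EdgeR called 2 higher and 0 lower (1.06% and 0.0154% of all promoters were called), *Dapp1* and *Unc5c*. With 1 library left out, their differences ran from 15.32 to 18.6 points and from 16.19 to 24.23 points. Neither was called without *Tet2*+/+ library 23 or library 24, where few or no promoters were called over all genes.

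*Tet2* itself had an unmethylated promoter in both groups, at 4.051% and 2.286% in *Tet2*+/+ and at 3.206%, 2.628% and 3.597% in *Tet2*-/-. Its gene body was at 71.84% ± 0.451 (SD, n = 2) in *Tet2*+/+ and at 71.68% ± 1.052 (SD, n = 3) in *Tet2*-/-. These levels cover different dyads, because the missing bases count toward the *Tet2*+/+ body only. They hold 128 of its 2938 calls in library 23 and 151 of 2823 in library 24. Of the 8 genes of the list around *Tet2*, which counts *Tet2* itself, only *Cxxc4*, which encodes a CXXC zinc finger inhibitor of Wnt signaling, had a promoter above *Tet2*+/+ in all *Tet2*-/- libraries, and 0 were called (32.8% and 1.06% of all promoters). It was at 5.224% and 5.682% in *Tet2*+/+ and at 8.118%, 13.35% and 33.83% in *Tet2*-/-, a difference of 12.98 points, or 5.281 points without *Tet2*-/- library 8. The median of these 8 promoters was 0.9477 points.

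The list drawn up for immune signaling also holds *Manba* and *Slc39a8*, neighbors of *Nfkb1* with other functions. Of its 6 promoters 5 were above *Tet2*+/+ in all *Tet2*-/- libraries and 1 was called, where 32.8% and 1.06% of all promoters were, and the median was 6.384 points against 2.217 points over all promoters. *Dapp1*, the gene of an adaptor of B cell receptor signaling, was at 0% (of 166 calls) and 2.26% in *Tet2*+/+ and at 17.96%, 21.5% and 14.93% in *Tet2*-/-, a difference of 17 points. *Bank1* was at 17.24% and 21.54% against 26.23%, 25.64% and 32.5%, on 40 to 78 calls per library. *Nfkb1* was at 18.15% and 16.29% against 21.64%, 21.79% and 23.97%, a difference of 5.247 points. *Manba*, which encodes the lysosomal beta-mannosidase, and *Slc39a8*, the gene of a zinc transporter, differed by 7.521 and 2.782 points, the latter 1.471 points without *Tet2*-/- library 8. *Ppp3ca* was at 0.5525% to 1.969% in all libraries, and the groups overlapped.

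The alcohol dehydrogenase genes fell into an unmethylated and a methylated kind. *Adh5*, the member expressed in all tissues, had a promoter at 1.125% to 3.077%. The promoters of *Adh1* and *Adh4* were at 76.92% and 48.15%, and at 84.91% and 49.09%, in *Tet2*+/+ libraries 23 and 24, and at 80.9% to 88.33% and 86.96% to 92.5% in *Tet2*-/-. In both, library 23 lay close to the lowest *Tet2*-/- library and library 24 far below, and the differences of 21.51 and 21.85 points were 7.12 and 3.943 points without library 24. Over the whole list 2 of 5 tested promoters were above *Tet2*+/+ in all *Tet2*-/- libraries, against 32.8% of all promoters, the median was 2.646 points, and 0 were called. *Adh6a* had too few calls.

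Among the genes of Wnt, BMP and netrin signaling, 3 of 4 promoters were above *Tet2*+/+ in all *Tet2*-/- libraries, against 32.8% of all promoters, and the median was 13.94 points. The list is short and was made with earlier results known. *Unc5c*, which encodes a netrin receptor, was at 3.797% and 1.98% in *Tet2*+/+ and at 17.1%, 21.05% and 33.18% in *Tet2*-/-, a difference of 20.89 points on 437 to 836 calls, and was called. *Dkk2*, the gene of a secreted Wnt modulator, was at 5.948% and 7.927% against 12.68%, 10.74% and 17.61%. *Bmpr1b*, the gene of a BMP receptor, was at 23.32% and 35.29% against 58.03%, 39.4% and 35.15%, where library 8 lay just below *Tet2*+/+ library 24. Its promoter (chr3:142168425-142170425) lies beyond the end of the stretch, and the gene was listed because its body reaches into it.

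For chromatin, translation and cell division, 6 of 7 promoters were under 20% in every library, 2 were above *Tet2*+/+ in all *Tet2*-/- libraries (32.8% of all promoters were), and the median was 0.4142 points with 0 called. *Metap1*, the gene of a methionine aminopeptidase, was the only promoter of the stretch below *Tet2*+/+ in all *Tet2*-/- libraries, by -0.7576 points (-0.4446 points without *Tet2*+/+ library 23), at 1.701% and 1.075% against 0.6494%, 0.905% and 0.3367%. *H2afz*, the gene of the histone variant H2A.Z, was at 1.452% to 2.807%. For lysosome, mitochondrion and transport 3 of 6 promoters were above, against 32.8% of all promoters, with a median of 4.652 points and 0 called. The largest promoter difference of the stretch was in *4930579F01Rik*, at 67.97% and 50.55% against 87.86%, 91.72% and 81.36% (27.72 points, not called).

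**Figure D5:**
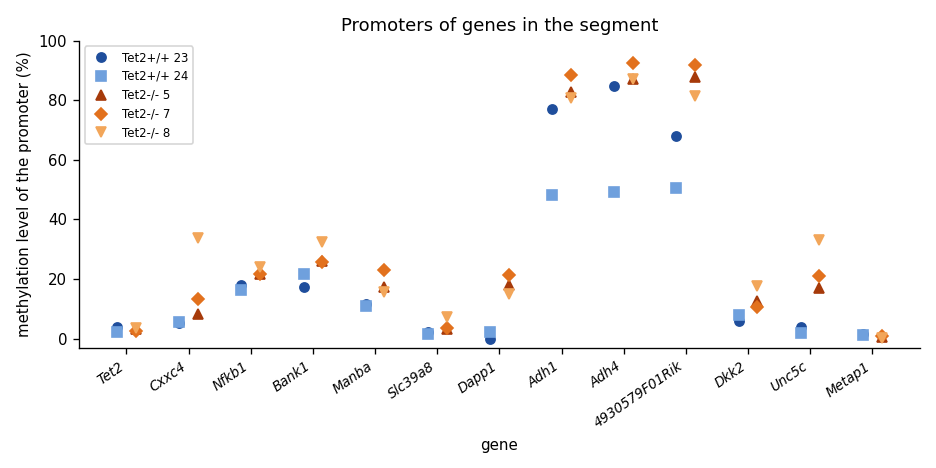
The methylation level (percent) of each library is plotted for the promoters of 13 genes of the stretch, *Tet2* first. *Tet2* and *Metap1* stay under 5% in all 5 libraries, *Dapp1* and *Unc5c* are under 4% in *Tet2*+/+ and at 14.93% to 33.18% in *Tet2*-/-, and the 2 *Tet2*+/+ libraries lie far apart in *Adh1* and *Adh4*.

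Gene bodies were mostly methylated in all libraries. Of 48 bodies with enough calls, 15 were above *Tet2*+/+ in all *Tet2*-/- libraries (46% of all bodies were) and 1 was below (1.46%). The median difference was 3.91 points, against 5 points in the rest of chromosome 3 and 4.955 points over all genes. EdgeR called 5 higher and 0 lower (15.5% and 0.0676% of all bodies were called). These were *Bdh2*, which encodes a dehydrogenase of siderophore synthesis, the sodium-proton exchanger genes *Slc9b2* and *Slc9b1* next to it, *1110002E22Rik* and *Adh4*. With no dyads removed *Slc9b1* was not called (edgeR adjusted p = 0.072, against 0.0171) and the other 4 were. The bodies had lost 3, 4, 5, 3 and 0 dyads in the order named. As in tiles, this raises the difference by construction, so these calls are given as a description. These calls were lost without *Tet2*+/+ library 24, where few bodies were called over all genes and their differences were 6.55 to 15.56 points. Without *Tet2*-/- library 7, 3 bodies were called (6.25%, against 10.5% of all bodies). *Slc9b2* and *Slc9b1* were not called without that library, nor without *Tet2*+/+ library 23. *Bdh2*, *1110002E22Rik* and *Adh4* were called with any library but *Tet2*+/+ library 24 left out.

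*Bdh2* had a body at 66.36% and 62.17% in *Tet2*+/+ and at 75.71%, 85.46% and 76.05% in *Tet2*-/- (14.81 points). *Slc9b2* was at 66.09% and 65.92% against 72.31%, 84.56% and 76.03% (11.62 points). *Adh4*, whose product oxidises retinol, was at 56.09% and 44.26% against 74.3%, 76.21% and 64.45% (21.48 points), and *Adh7* at 63.85% and 52.87% against 67.14%, 74.15% and 67.64% (11.28 points, not called, or 5.793 points without *Tet2*+/+ library 24). *Lamtor3*, the gene of a scaffold that recruits mTORC1 to the lysosome, was the only body below *Tet2*+/+ in all *Tet2*-/- libraries, at 62.18% and 54.61% against 53.26%, 52.82% and 52.7% (-5.468 points, not called, or -1.683 points without *Tet2*+/+ library 23). *Nfkb1*, with 18 removed dyads, had a body at 70.63% and 69.78% against 69.07%, 74.66% and 68.16%, and its difference was 0.4231 points after and -0.9551 points before the removal. With 1 library left out, the value after the removal ran from -1.59 points (without *Tet2*-/- library 7) to 1.66 points (without library 8), so its sign was set by single libraries.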

How the data were processed

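The authors sequenced bisulfite-treated DNA of sorted AML blasts, with libraries made after the conversion. Per the methods and processing notes, the authors trimmed reads with Trim Galore 0.4.3, aligned them to GRCm38 (mm10) with Bismark 0.19.1 and Bowtie2 in non-directional mode, and deduplicated the alignments. The deposited tables list raw counts of methylated and of unmethylated calls for every CpG cytosine. No batch is named.

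Calls of both strands were added per dyad. The 5 libraries had 63111735 to 110752967 calls at 21353092 dyads, or 2.956 to 5.187 calls per dyad, and 0.807% to 0.989% of mitochondrial CpG calls were methylated, which is the level that incomplete conversion can give. Intervals and upper limits cover counting error only, since duplicates were removed by position and not by molecule. The level of a region is methylated calls over all calls. All 1191216 dyads of chromosome 3 matched CG in the reference.

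Tiles, promoters and bodies of protein-coding genes (GENCODE M21) with no library under 20 calls went into edgeR 4.0.16 (quasi-likelihood) and limma 3.58.1 in R 4.3.3, with p adjusted over all regions of a kind at 0.05. Coverage was compared with an exact permutation test. Python 3.11.15, numpy 2.4.6, scipy 1.17.1 and matplotlib 3.10.9 were used. The edgeR script was first tested on simulated data.

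The stretch, its members and the gene lists were chosen with earlier results of these data known. Named tiles are the 5 with the largest difference in each direction whose groups do not overlap and the 5 that lost most dyads, with ties broken by position. Named genes are *Tet2*, *Cxxc4*, *Nfkb1*, *Bank1*, the 4 with the largest promoter and body difference in each direction without overlap, and examples from the lists chosen after their values were seen. Promoters that share a start region share calls. Of 10 cell type marker genes, the promoters of *Mpo* and *Spi1* (myeloid) were at 10.73% and 8.941% on average, *Csf1r* (monocytic) at 72.33%, and *Cd3e* (lymphoid) at 68.01%. Another marker is not reported here. Promoter methylation does not settle which cells a library held.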

Additional observations from a re-analysis of the deposited data

How the results depend on the processing

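Counts of calls depended most on single libraries. EdgeR called 60 tiles of the stretch with all libraries (3.13%, against 3.24% of all tiles), 3 to 66 with 1 library left out (0.157% to 3.45%, against 0.0561% to 4.12%) and 29 with tiles of 10 kb (2.91%, against 4.16%). Limma called 12 (4 higher, 8 lower) after subtraction of the median of each library (0.627%, against 0.0567%). With all libraries, 2 promoters were called (4.26%, against 1.07% of all promoters) and 5 gene bodies (10.4%, against 15.5% of all bodies). With 1 *Tet2*-/- library left out, 2 promoters were called each time (4.26%, against 0.416% to 1.51%). Called bodies then numbered 3 to 5 (6.25% to 10.4%, against 8.75% to 16.2%). The fits without a *Tet2*+/+ library are described above with the genes. The median tile difference kept its direction in 16 alternatives (1.368 to 5.448 points), and the gap to the rest of chromosome 3 stayed negative in 16 (-3.848 to -1.43 points). Relative coverage differed by -8.284 to -7.315 points with 1 library left out and by -10.37 points relative to all autosomes. A minimum of 6 *Tet2*-/- calls gave 634 removed dyads (2.87% of 22101 eligible) and a minimum of 20 gave 85 (1.47% of 5799), against 400 (2.17% of 18445). The shares in the rest of chromosome 3 were 0.00519%, 0.0021% and 0.00299% in this order. The share of dyads without *Tet2*-/- calls, an alternative set chosen after seeing the data, was 0.437% to 1.34% with 1 library left out. With 1 *Tet2*+/+ library left, that library is assumed to vary like the *Tet2*-/- libraries. No paired analysis was possible because the groups share no replicate number. Depth limits the calls per dyad: at 10 calls, a count of 0 does not separate a low level from 0.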
